A study of Mus musculus with 20 samples.

Results

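The 9 genes described here encode parts of the podocyte slit diaphragm and of the apparatus that anchors it: nephrin (Nphs1), Neph1 (Kirrel), CD2-associated protein (Cd2ap), Magi2, phospholipase C epsilon (Plce1), the receptor phosphatase GLEPP1 (Ptpro), podocalyxin (Podxl), synaptopodin (Synpo) and the transcription factor Wt1. They were chosen by symbol, and all 9 were found among the 47069 genes of the deposited counts, each as 1 Ensembl gene and as 1 FPKM entry. Kidney RNA was sequenced from 20 male mice of a 129SJ x C57Bl/6J cross at 15 weeks of age. The mice were 5 untreated wild-type mice (WT), 6 Col4a3-/- mice given PBS (Veh), 6 Col4a3-/- mice given Lademirsen at 50 mg/kg (Anti-miR-21) and 3 Col4a3-/- mice given ramipril at 11 mg/L of drinking water (ACEi). PBS and Lademirsen were injected under the skin once a week, the ACEi mice also received PBS, and all treatments began at 5 weeks of age. All 3 treated groups thus carried the same Col4a3 mutation, which removes a chain of the collagen of the glomerular basement membrane and serves as a model of Alport syndrome. Lademirsen is an oligonucleotide directed against the microRNA miR-21, and ramipril inhibits angiotensin-converting enzyme.

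Podocytes are the cells that cover the glomerular capillaries from the urinary side, and their interlocking foot processes are joined by the slit diaphragm. Nephrin and Neph1 are the transmembrane proteins that bind each other across the slit. Cd2ap and Magi2 tie them to the actin cytoskeleton and to other scaffolds inside the cell, and phospholipase C epsilon acts in signalling beneath the membrane. Podocalyxin, which carries the negative charge of the apical surface, and GLEPP1 lie on the apical side of the foot process, synaptopodin binds actin within it, and Wt1 is the transcription factor by which podocyte nuclei are commonly recognized. Inherited defects of nephrin, Cd2ap, Magi2, Plce1, Ptpro or Wt1 causes nephrotic disease in humans.

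The target of the Anti-miR-21 treatment is shown because it defines that group. The mature miRNA of the mouse, mmu-miR-21a-5p, lies at chr11:86584120-86584141 on the minus strand of GRCm38.p6 (RefSeq), and capitals mark its seed, bases 2 to 8.
mmu-miR-21a-5p: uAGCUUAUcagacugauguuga
The complement of this seed, ATAAGCT, was searched in the longest annotated 3′ untranslated region of each tested coding gene, a search added after the values were known. It was present in 1 of the 9 genes, Cd2ap, and in 7.61% of 15238 genes. The site begins at base 339 of the 3377 bases of that region of Cd2ap, and it is printed with its neighbours, the match in capitals.
Cd2ap site: ctttacaaATAAGCTgtaagata
A match of letters is a description and no evidence of binding.

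The total count per mouse lay between 28474301 and 29479629. Col4a3 checks the genotype labels: its level was 217 ± 16.4 CPM (mean ± SD, n = 5) in WT, where CPM are counts relative to the TMM-scaled library total, and 37.8 ± 7.63 (n = 6) in Veh, and none of the Col4a3-/- mice came near the lowest WT value of 194 CPM. The labelled tissue is kidney, although the extraction text names adipose tissue. The summed level of 8 proximal tubule markers was 14818 to 18913 CPM in WT, and that of 5 adipocyte markers was 1.68 to 18.3 CPM in WT but up to 410 CPM in Veh and up to 224 CPM in Anti-miR-21 mice. The libraries were run on 2 flow cells, which are called A (13 mice) and B (7 mice), and each group had mice on both.

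The positions of the genes on GRCm38 are as follows. Nphs1 (ENSMUSG00000006649) lies at chr7:30458315-30487223 on the plus strand, Kirrel (ENSMUSG00000041734) at chr3:87078593-87174747 on the minus strand and Cd2ap (ENSMUSG00000061665) at chr17:42792951-42876665 on the minus strand. Magi2 (ENSMUSG00000040003) lies at chr5:19227036-20704792, Plce1 (ENSMUSG00000024998) at chr19:38481109-38785030 and Ptpro (ENSMUSG00000030223) at chr6:137252319-137463233, all on the plus strand. Podxl (ENSMUSG00000025608) lies at chr6:31519488-31563981 on the minus strand, Synpo (ENSMUSG00000043079) at chr18:60593973-60660142 on the minus strand and Wt1 (ENSMUSG00000016458) at chr2:105126529-105173616 on the plus strand. No annotated gene overlaps Cd2ap, Podxl, Synpo or Wt1. Nphs1 is overlapped on the other strand by the antisense gene Nphs1os and the pseudogene Rps12-ps4, and Kirrel, Magi2, Plce1 and Ptpro also share their span with non-coding genes or pseudogenes. Whether the counting used strand is not given in the sources used here, so reads of such pairs cannot be told apart. The authors marked the FPKM entries of Nphs1 and Magi2 as confounded with another gene.

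Levels can be compared between genes only per length, for which the FPKM values of the authors were used. In WT mice Podxl was highest, at 21.4 ± 4.58 FPKM (SD, n = 5), ahead of Cd2ap at 12.5 ± 0.912 FPKM and Synpo at 11.6 ± 0.963 FPKM. The Cd2ap and Synpo ranges overlapped, 11.1 to 13.2 against 10.0 to 12.5 FPKM. Nphs1 followed at 3.26 ± 0.969 FPKM, Wt1 at 2.18 ± 0.209 FPKM and Ptpro at 1.88 ± 0.452 FPKM, and these 3 also overlapped. The lowest levels in WT were those of Kirrel (1.04 ± 0.180 FPKM), Magi2 (0.802 ± 0.147 FPKM) and Plce1 (0.481 ± 0.122 FPKM), and the ranges of Kirrel and Magi2, and of Magi2 and Plce1, overlapped.

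The order of the authors' FPKM was different in Veh mice. Synpo stood first at 47.4 ± 6.38 FPKM (n = 6), and Kirrel moved from seventh to the fourth place, at 8.21 ± 1.40 FPKM. Nphs1, which held the fourth place in WT, held the seventh at 5.17 ± 0.730 FPKM. In Anti-miR-21 and ACEi mice Nphs1 was again the fourth (6.91 ± 0.975 FPKM, n = 6, and 6.41 ± 1.29 FPKM, n = 3) and Kirrel again the seventh (3.26 ± 0.834 and 4.21 ± 0.416 FPKM). These levels are not scaled between groups beyond the library total, and part of the order depends on the counting. Recomputed from the counts and the authors' exon length, Synpo was at 4.84 FPKM in WT and 18.6 ± 2.61 FPKM in Veh, behind Podxl and Cd2ap in each of the 4 groups, so its first place in Veh was not kept. Kirrel was again the seventh in WT and the fourth in Veh on this scale, at 7.86 ± 1.34 FPKM, but the sixth in Anti-miR-21 and the fifth in ACEi mice. Nphs1 was the sixth in Veh and the fourth in the other groups. Ptpro was at 3.83 FPKM in Veh, against 7.21 in the authors' values, and went there from rank 5 to rank 7. It made the same change of rank in Anti-miR-21 and ACEi mice. Plce1 was at 1.22 FPKM in Veh, against 1.88. The recomputation beyond WT was chosen after the values were seen.

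**Figure D1:**
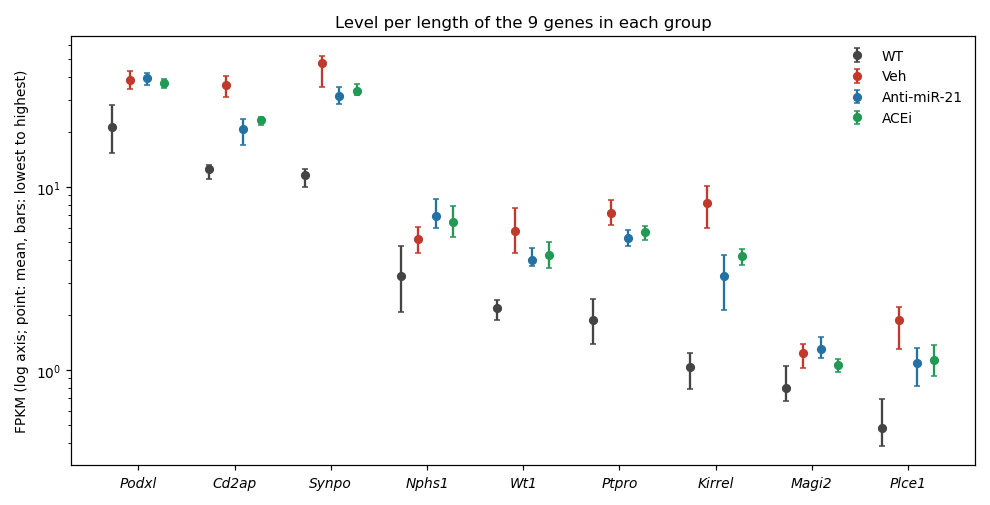
FPKM of each of the 9 genes (log axis) in the 4 groups, with points for the group mean and bars from the lowest to the highest mouse. Podxl, Cd2ap and Synpo were the 3 highest genes in every group, and Kirrel stood between Plce1 and Ptpro in WT but above Ptpro in Veh.

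The comparison of Veh with WT asks how the genes differed in the diseased kidney. The slit diaphragm genes were not lower in Veh. Kirrel rose most, 5.19-fold, followed by Plce1 (2.65-fold), Synpo (2.55-fold), Ptpro (2.40-fold), Cd2ap (1.91-fold) and Wt1 (1.79-fold), while Podxl rose 1.19-fold. Nphs1 and Magi2 did not pass the test, with 1.06-fold and 1.03-fold. Thus 7 of the 9 genes were called higher and 0 lower at an adjusted p under 0.05 (edgeR's quasi-likelihood test, Benjamini-Hochberg adjustment over 17622 genes). The background is high: 73.0% of all genes tested were called in this comparison, 39.0% higher and 34.0% lower. The median log2 fold change was 0.93 over the 9 genes and 0.069 over all genes. Veh and WT mice were fully separated for 6 of the 9 genes, and for 54.9% of all genes tested. A whole kidney was sequenced, so fewer podocytes and less RNA per podocyte cannot be told apart, nor can more podocytes and more RNA per podocyte. RNA of the 9 genes from podocytes and from other kidney cells cannot be told apart either.

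Kirrel, the partner of nephrin in the slit, had 8.91, 10.6, 9.55, 9.97 and 6.96 CPM in the WT mice A3, A6, A14, A17 and A18. The Veh mice ran from 37.9 to 58.4 CPM with a median of 47.0 CPM. Every Veh mouse was above every WT mouse, with a log2 fold change of 2.38 (SE 0.14, adjusted p = 1.6e-11). Within flow cell A the log2 fold change was 2.39 and within flow cell B 2.31.

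Nephrin behaved otherwise. Nphs1 had 18.7, 25.4, 18.03, 16.1 and 12.8 CPM in the same WT mice, and 16.4 to 21.8 CPM with a median of 19.2 CPM in Veh. The Veh mice lay within the range of the WT mice, and the log2 fold change was 0.081 (SE 0.13, adjusted p = 0.59). Without the WT mouse A18 it was -0.023. Within flow cell A it was -0.12, and within flow cell B it was 0.46 and passed the test (adjusted p = 0.0446). The scaffold Magi2, which binds nephrin, had 6.24, 8.33, 6.72, 5.36 and 6.54 CPM in WT and 5.75 to 7.48 CPM in Veh, median 7.09 CPM. Here too the groups covered the same range (log2 fold change 0.038, SE 0.10, adjusted p = 0.748), with values of -0.046 within flow cell A and 0.17 within flow cell B.

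Of the apical proteins, podocalyxin and GLEPP1 differed in how far they moved. Podxl had 144, 177, 142, 127 and 99.9 CPM in WT and 159 to 177 CPM in Veh, median 163 CPM. The highest WT mouse, A6, was level with the highest Veh mouse. The log2 fold change of Podxl was 0.26 (SE 0.095, adjusted p = 0.0197), with 0.12 within flow cell A, where it did not pass the test (adjusted p = 0.237), and 0.49 within flow cell B. Without the WT mouse A18 the adjusted p of Podxl was 0.0631, and the call was also lost without A17. Ptpro had 9.40, 13.99, 12.1, 8.58 and 7.26 CPM in WT and 21.9 to 28.5 CPM in Veh, median 23.6 CPM. Its groups were well apart, with a log2 fold change of 1.26 (SE 0.12, adjusted p = 1.27e-08).

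The remaining genes all rose with no overlap. Synpo, the actin-binding protein of the foot process, had 51.3, 54.9, 45.0, 43.3 and 35.7 CPM in WT and 94.9 to 129 CPM in Veh, median 119 CPM (log2 fold change 1.35, SE 0.096, adjusted p = 1.49e-10). Cd2ap, the adaptor between nephrin and actin, had 72.9, 80.0, 81.0, 78.9 and 75.8 CPM in WT and 139 to 165 CPM in Veh, median 146 CPM. The WT mice of Cd2ap lay close together, and its log2 fold change was 0.93 (SE 0.057, adjusted p = 2.47e-11). Plce1 had 5.43, 3.53, 4.10, 3.56 and 3.78 CPM in WT and 8.30 to 12.6 CPM in Veh, median 10.9 CPM (log2 fold change 1.41, SE 0.14, adjusted p = 1.29e-08). Wt1 had 8.998, 8.49, 8.32, 7.28 and 6.75 CPM in WT and 12.2 to 18.6 CPM in Veh, median 13.2 CPM. Its log2 fold change was 0.84 (SE 0.11, adjusted p = 4.79e-07), and the Veh mouse A19 stood above the others.

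**Figure D2:**
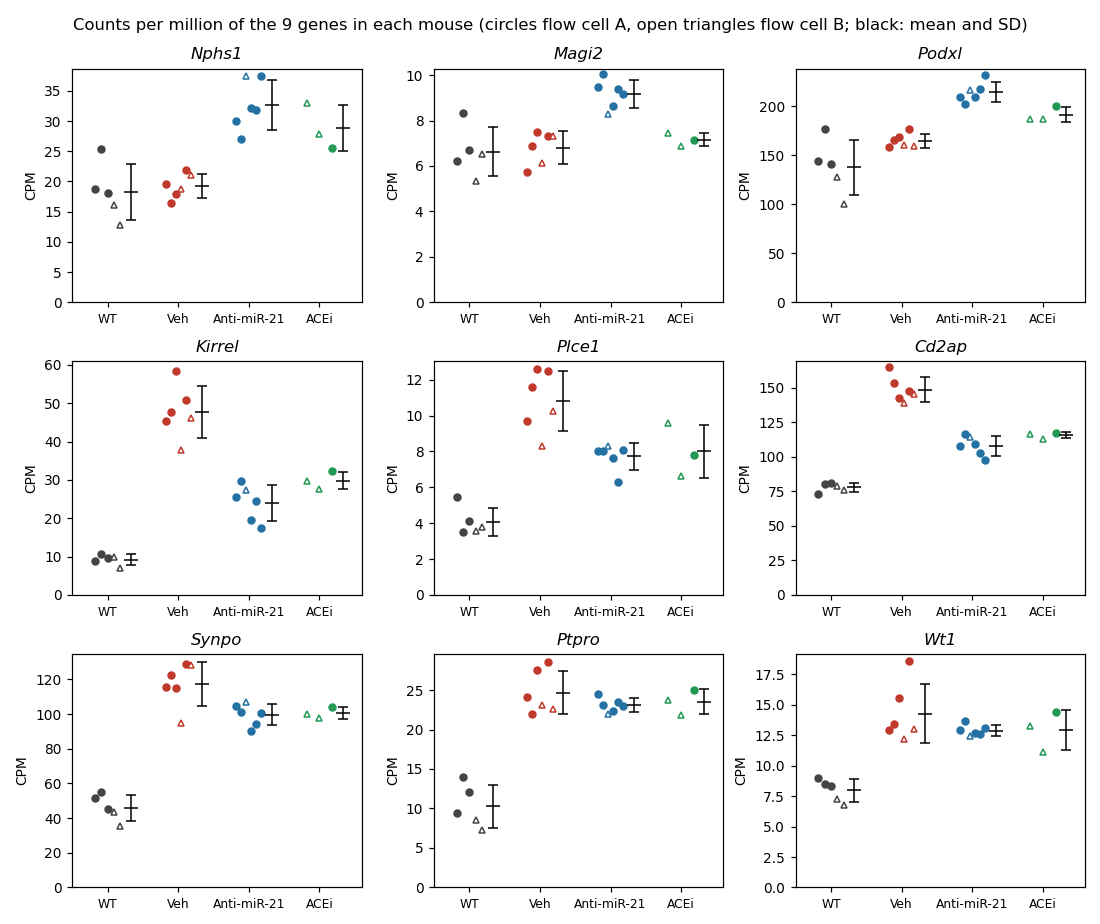
CPM (scaled by TMM) of the 9 genes in each mouse of the 4 groups; circles are mice of flow cell A and open triangles mice of flow cell B, and black marks give the mean and SD. Kirrel ran from 37.9 to 58.4 CPM in Veh and from 6.96 to 10.6 CPM in WT, whereas the Veh mice of Nphs1 lay within the WT range and the Anti-miR-21 mice above both.

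The scaling between libraries matters for these directions. TMM factors, which correct for the share of counts taken by a few genes, were 0.771 to 0.850 in WT and 1.12 to 1.26 in Veh. With library totals alone, the median log2 fold change over all genes moved from 0.069 to 0.65, and Nphs1 and Magi2 were then called higher in Veh as well, with log2 fold changes of 0.67 and 0.62. These values lie beside the shifted median of all genes, and 9 of 9 genes were called, where 14307 of 17622 genes tested were called. By limma on log2(FPKM + 1), the scale used by the study, 9 of 9 were also called higher, where 14355 of 21460 FPKM entries were called. A measure that needs no scaling is the difference within a library, for which the log2 CPM of each gene was set against the mean log2 CPM of the other 8 genes in the same mouse.

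On that measure the genes must part in both directions, because each gene is set against the mean of the others. The split itself therefore shows nothing, and the order of the genes repeats that of their fold changes between Veh and WT. Between WT and Veh, Kirrel went from -1.07 to 0.52 and Synpo from 1.53 to 1.99, and the groups did not overlap for either gene. Nphs1 went from 0.012 to -0.94, Magi2 from -1.59 to -2.62 and Podxl from 3.31 to 2.54, again with no overlap of the groups. Plce1 (difference 0.49), Ptpro (0.38), Wt1 (-0.14) and Cd2ap (-0.027) overlapped between WT and Veh. Relative to the other genes of the list, Nphs1, Magi2 and Podxl were thus lower in Veh than in WT, and Kirrel and Synpo higher. The differences of these 5 genes had the same sign on log2(FPKM + 1), with 1.08 for Kirrel, 0.83 for Synpo, -0.73 for Nphs1 and -0.40 for Podxl. Those of Cd2ap and Plce1 turned, to 0.29 and -0.28. No test was run on this measure, and it was chosen with earlier results known.

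**Figure D3:**
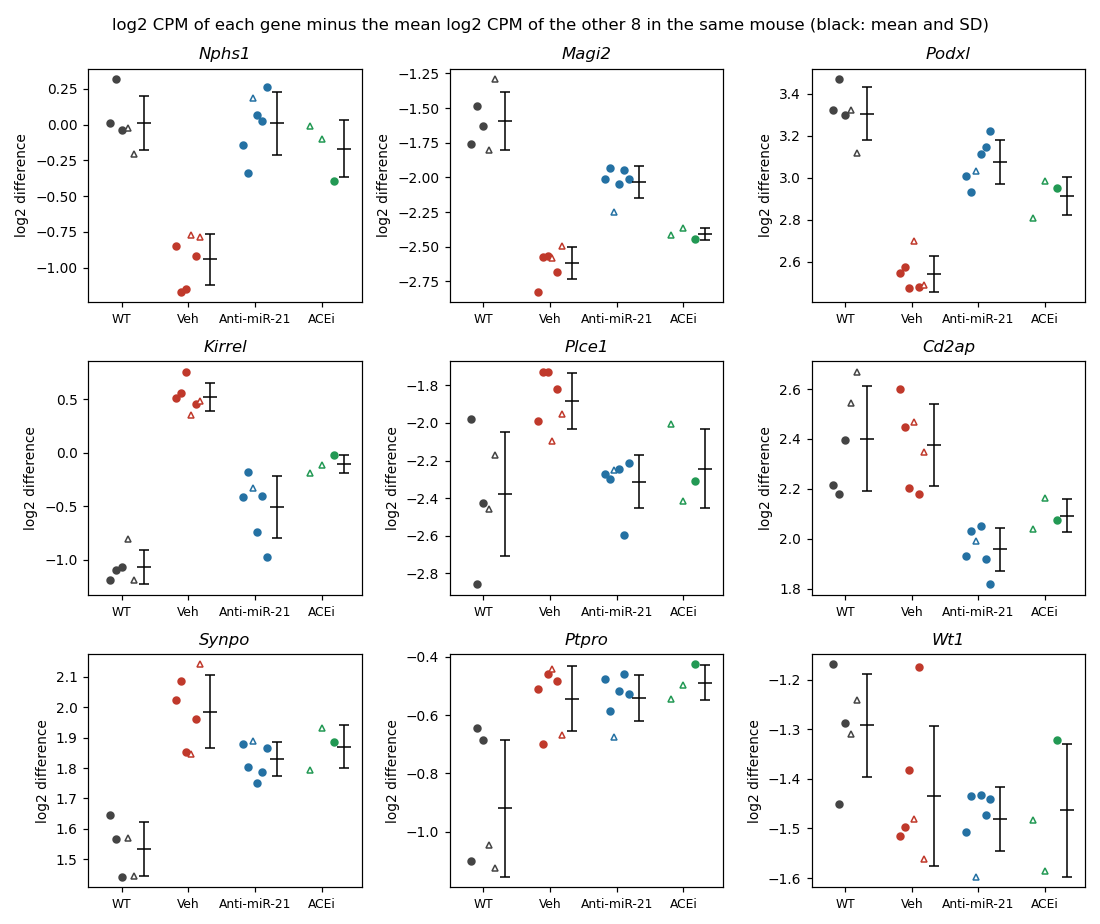
log2 CPM of each gene minus the mean log2 CPM of the other 8 genes in the same mouse; symbols as for the CPM of each mouse, black marks the mean and SD. Nphs1, Magi2 and Podxl were lowest in Veh, with means of -0.94, -2.62 and 2.54, and Kirrel was highest in Veh, with a mean of 0.52.

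The plainest form of this shift is the ratio of the counts of Kirrel to those of Nphs1, in which the scaling cancels. It was 0.516 ± 0.0752 (SD, n = 5) in WT, 2.50 ± 0.474 (n = 6) in Veh, 0.753 ± 0.216 (n = 6) in Anti-miR-21 and 1.05 ± 0.189 (n = 3) in ACEi. The lowest Veh mouse, at 2.01, lay above the highest mouse of every other group, which were 0.618 in WT, 1.10 in Anti-miR-21 and 1.26 in ACEi. The ratio of Synpo to Nphs1 had the same order, with 2.57 ± 0.253 in WT, 6.13 ± 0.790 in Veh, 3.09 ± 0.422 in Anti-miR-21 and 3.54 ± 0.522 in ACEi. That of Ptpro to Nphs1 was 0.564 ± 0.0637, 1.28 ± 0.151, 0.718 ± 0.107 and 0.827 ± 0.136 in the same order of groups. The ratio of Podxl to Nphs1 moved least, from 7.64 ± 0.375 in WT to 8.63 ± 0.926 in Veh, 6.64 ± 0.606 in Anti-miR-21 and 6.75 ± 1.09 in ACEi. These ratios were picked after the values were seen and carry no test.

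**Figure D4:**
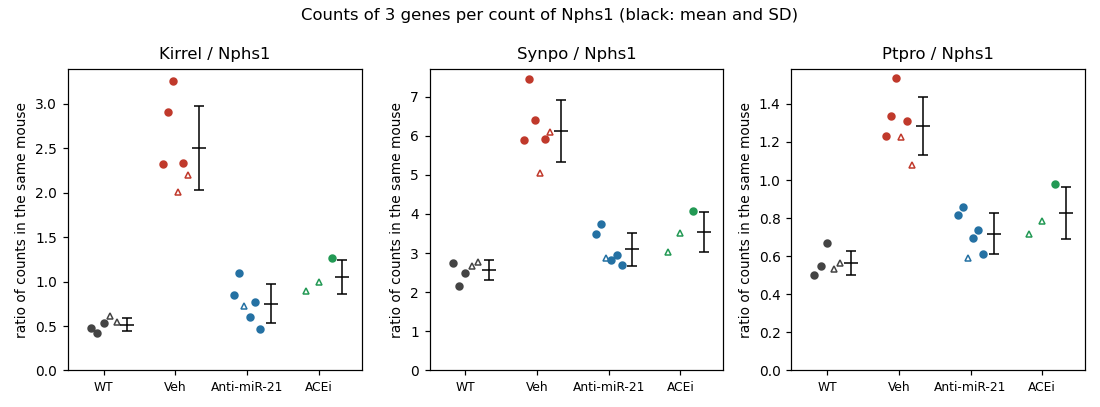
Counts of Kirrel, Synpo and Ptpro per count of Nphs1 in each mouse of the 4 groups (symbols as for the CPM of each mouse, black marks the mean and SD). In all 3 ratios the Veh mice stood above the WT and treated mice, for Kirrel at 2.01 or more against at most 1.26.

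Of the genes that rose in Veh, 4 have an entry in the RefSeq promoter table used here, and their sequences are shown so that the promoters of genes that rose together can be read side by side. Each line gives the 250 bases before the annotated start, 5′ to 3′ on the strand of the gene (RefSeq, GRCm38.p6). Kirrel is chr3:87174538-87174787 (minus), Plce1 chr19:38523947-38524196 (plus), Ptpro chr6:137252049-137252298 (plus) and Cd2ap chr17:42876425-42876674 (minus). The starts used for Kirrel, Plce1 and Cd2ap lie within the spans of these genes given above. The Plce1 window lies wholly within its span, and the Kirrel and Cd2ap windows lie within theirs for the larger part. Only the Ptpro window lies wholly before the span of its gene. Capitals mark matches to the letters searched.
Kirrel: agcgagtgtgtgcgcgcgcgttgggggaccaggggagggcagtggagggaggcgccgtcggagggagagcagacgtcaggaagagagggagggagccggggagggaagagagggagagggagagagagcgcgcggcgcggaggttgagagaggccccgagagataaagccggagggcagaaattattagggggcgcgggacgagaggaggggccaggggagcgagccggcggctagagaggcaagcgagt
Plce1: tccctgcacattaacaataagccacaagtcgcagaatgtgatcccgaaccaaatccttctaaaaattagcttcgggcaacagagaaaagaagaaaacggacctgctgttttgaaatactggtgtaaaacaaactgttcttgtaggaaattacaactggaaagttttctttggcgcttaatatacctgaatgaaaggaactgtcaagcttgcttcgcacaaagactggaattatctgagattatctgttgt
Ptpro: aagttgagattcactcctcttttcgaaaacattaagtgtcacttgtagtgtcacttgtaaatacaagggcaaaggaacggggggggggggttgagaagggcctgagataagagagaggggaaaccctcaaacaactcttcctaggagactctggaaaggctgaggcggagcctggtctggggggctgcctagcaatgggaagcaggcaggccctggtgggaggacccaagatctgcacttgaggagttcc
Cd2ap: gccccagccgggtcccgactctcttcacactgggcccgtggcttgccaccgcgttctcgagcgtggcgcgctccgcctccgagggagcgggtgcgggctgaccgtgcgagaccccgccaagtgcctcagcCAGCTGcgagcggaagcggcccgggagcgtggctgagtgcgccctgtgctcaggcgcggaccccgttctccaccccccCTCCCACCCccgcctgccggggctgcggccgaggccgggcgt

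Motifs of 3 podocyte factors were searched in these windows on both strands. GNGTGGGNG, of the Wt1 and Egr1 type, occurred in 12.7% of 32851 promoter windows of the same length. CAGCTG and CATCTG, E-boxes of the Tcf21 type, occurred in 4271 windows and in 14.4% of windows, and TGCTGA, a part of the Maf recognition element, in 16.1%. Of the 6 genes with an entry (Nphs1, Kirrel, Cd2ap, Magi2, Plce1 and Ptpro), Nphs1, Cd2ap and 1 of the 2 Magi2 windows held the Wt1 type, which began 42 bases before the start in Cd2ap and 119 in Magi2. CAGCTG was found in Cd2ap and in the same Magi2 window, 120 and 225 bases before the start. The windows of Kirrel, Plce1 and Ptpro held none of the 4. The windows also differed in composition, with 68.8% G and C in Kirrel, 76.4% in Cd2ap, 53.6% in Ptpro and 38.8% in Plce1 against a median of 52.4% over all windows.

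Treatment with anti-miR-21 moved the genes in both directions. Against Veh, Nphs1 (1.69-fold), Magi2 (1.34-fold) and Podxl (1.30-fold) rose, and Kirrel, Plce1, Cd2ap and Synpo fell, by 0.99, 0.48, 0.46 and 0.24 on the log2 scale. Ptpro and Wt1 did not pass the test. Thus 7 of 9 genes were called, 3 higher and 4 lower, where 59.2% of all genes were called, 28.8% higher and 30.5% lower. With library totals alone, which moved the median over all genes from -0.041 to -0.38 in log2 fold change, Podxl (0.037) and Magi2 (0.086) were no longer called and Ptpro and Wt1 were called lower, so that the split was 1 higher and 6 lower. With library totals 12320 of 17622 genes tested were called. The sign of each of the 7 calls was the same under both scalings. Anti-miR-21 and Veh mice were fully separated for 6 of the 9 genes, and for 36.4% of all genes tested.

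The 3 genes that rose are the ones that had moved least between WT and Veh. Nphs1 ran from 27.0 to 37.5 CPM in Anti-miR-21 mice with a median of 32.0 CPM, above all Veh mice and above all WT mice. Its log2 fold change against Veh was 0.76 (SE 0.12, adjusted p = 2.92e-05), and 0.74 within flow cell A. Magi2 ran from 8.29 to 10.1 CPM, median 9.26 CPM, above the highest Veh mouse (7.48 CPM). Its log2 fold change was 0.43 (SE 0.096, adjusted p = 0.000746). Podxl ran from 202.5 to 232 CPM, median 213 CPM, also above every Veh mouse, with a log2 fold change of 0.38 (SE 0.090, adjusted p = 0.00114). Within flow cell A the values were 0.45 for Magi2 and 0.36 for Podxl, and both were called there.

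Kirrel fell to 17.4 to 29.7 CPM, median 25.0 CPM, between the WT and the Veh mice without touching either (log2 fold change -0.99, SE 0.12, adjusted p = 1.08e-06). Cd2ap was likewise between the groups, with 97.7 to 116 CPM and a median of 108 CPM (log2 fold change -0.46, SE 0.053, adjusted p = 4.97e-07). Plce1 ran from 6.27 to 8.29 CPM, median 8.03 CPM, just under the lowest Veh mouse at 8.30 CPM (log2 fold change -0.48, SE 0.12, adjusted p = 0.00232). Within flow cell A the 3 log2 fold changes were -1.11, -0.51 and -0.60. Synpo ran from 90.5 to 107 CPM, median 101 CPM, and overlapped Veh only through the Veh mouse A16 at 94.9 CPM. Its call was the least secure: the log2 fold change was -0.24 (SE 0.088, adjusted p = 0.0261), and it failed the test in 6 of 12 fits that each left out 1 mouse (without A1, A4, A19, A20, A12 or A15), with an adjusted p of 0.0876 without the Veh mouse A19. Ptpro had 21.99 to 24.4 CPM and Wt1 12.4 to 13.7 CPM, both within the range of Veh, with log2 fold changes of -0.095 (adjusted p = 0.481) and -0.15 (adjusted p = 0.201).

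ACEi mice were compared with the same Veh mice, so both comparisons share their controls. Nphs1 rose 1.49-fold, and Kirrel, Plce1 and Cd2ap fell by 0.68, 0.43 and 0.36 on the log2 scale. These were 4 of the 9 genes, 1 higher and 3 lower, where 40.1% of all genes were called, 21.0% higher and 19.1% lower. With library totals alone Nphs1 lost its call (log2 fold change 0.31, adjusted p = 0.104) and Synpo and Wt1 were called lower, so that the split was 0 higher and 5 lower. Calls over all genes then numbered 9296 of 17622. By limma on log2(FPKM + 1) the split was 0 higher and 6 lower, with Ptpro lower as well, where 9642 of 21460 FPKM entries were called. ACEi and Veh mice were fully separated for 4 of the 9 genes, and for 38.6% of all genes tested. With 3 ACEi mice, of which 2 were on flow cell B, this comparison is the least precise of the 3. Within flow cell B only Nphs1 of the 9 genes was called (log2 fold change 0.64), where 1539 of 16993 genes tested were called. The values of Kirrel, Cd2ap and Plce1 there were -0.53, -0.28 and -0.16.

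The ACEi mice A11, A13 and A23 had 33.03, 27.8 and 25.6 CPM of Nphs1, all above the highest Veh mouse at 21.8 CPM (log2 fold change 0.58, SE 0.15, adjusted p = 0.00424). For Kirrel they had 29.6, 27.6 and 32.2 CPM, all below the lowest Veh mouse (log2 fold change -0.68, SE 0.15, adjusted p = 0.00157). For Cd2ap they had 117, 113 and 117 CPM, again below all Veh mice (log2 fold change -0.36, SE 0.066, adjusted p = 0.000266). The Plce1 values of 9.58, 6.66 and 7.80 CPM overlapped Veh, and the call (log2 fold change -0.43, adjusted p = 0.0316) was lost in 5 of 9 fits that each left out 1 mouse (without A4, A9, A19, A13 or A23), with an adjusted p of up to 0.197 without A13. It was also lost with flow cell as a term (adjusted p = 0.0661). Podxl, with 188, 187 and 200.6 CPM, lay above every Veh mouse but did not pass the test (log2 fold change 0.22, adjusted p = 0.121), and its sign turned to -0.057 with library totals alone. With flow cell as a term Podxl was called higher (log2 fold change 0.27, adjusted p = 0.0428). Magi2 had 7.44, 6.87 and 7.15 CPM (log2 fold change 0.071, adjusted p = 0.659, and -0.20 with library totals alone). Synpo, Ptpro and Wt1 had log2 fold changes of -0.22, -0.068 and -0.15 and did not pass the test.

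**Figure D5:**
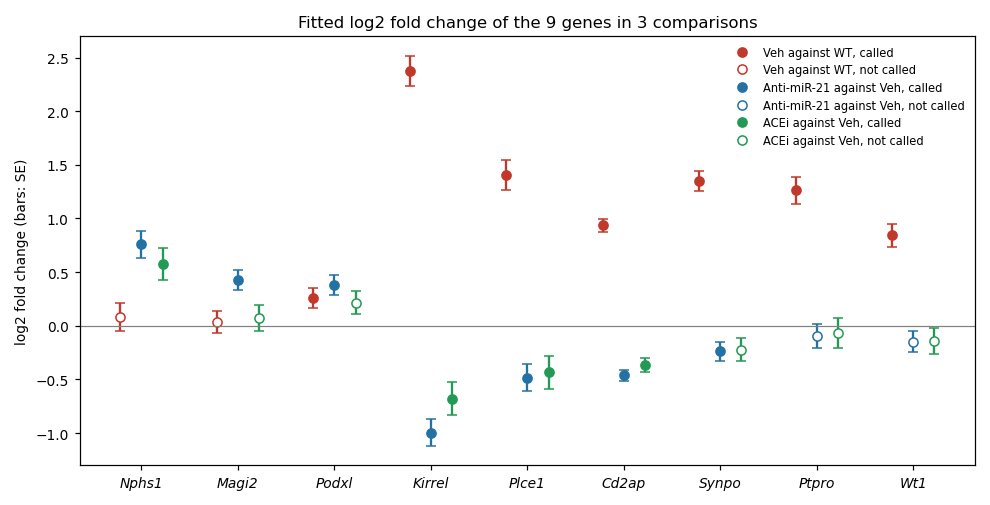
Fitted log2 fold changes of the 9 genes (bars: SE) in the comparisons of Veh with WT, Anti-miR-21 with Veh and ACEi with Veh; filled points were called at an adjusted p under 0.05. Nphs1 was at 0.081 in Veh against WT and at 0.76 and 0.58 under treatment, whereas Kirrel was at 2.38, -0.99 and -0.68; with library totals alone Podxl and Magi2 in ACEi against Veh turned to -0.057 and -0.20.

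The direct comparison of the treatments called none of the 9 genes, where edgeR's test called 0.584% of all genes. At an unadjusted p under 0.05 there were 2 of the 9, Magi2 and Kirrel, where 14.5% of all genes tested were under that limit. The log2 fold change of Anti-miR-21 against ACEi was 0.36 (SE 0.12, adjusted p = 0.172) for Magi2 and -0.31 (SE 0.15, adjusted p = 0.336) for Kirrel. DESeq2 and limma also called 0 of the 9. Over all genes, DESeq2 called 437 of 27201 and limma on log2(FPKM + 1) called 93 of 21460. The mice of both groups were fully separated for Magi2 and Podxl, 2 of the 9 genes, and for 8.99% of all genes tested. For Nphs1 the difference was 0.18 (SE 0.15), for Podxl 0.16 (SE 0.11) and for Cd2ap -0.099 (SE 0.065). Differences of Plce1, Ptpro, Synpo and Wt1 lay between -0.053 and -0.0035. That Magi2 passed the test against Veh in Anti-miR-21 mice and not in ACEi mice is thus no shown difference between the treatments.

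Against WT the treated groups were higher for most of the 9 genes, among them Nphs1, which was not called between Veh and WT. In Anti-miR-21 mice all 9 genes were called higher than in WT, where 43.7% of all genes were called in either direction and 23.9% higher, and the mice were fully separated for 8 of the 9 genes (not for Magi2) and for 23.8% of all genes tested. The log2 fold changes ran from 0.47 for Magi2 and Cd2ap and 0.64 for Podxl to 1.17 for Ptpro and 1.38 for Kirrel, with 0.84 for Nphs1 (adjusted p = 4.39e-05). In ACEi mice 8 of the 9 genes were called higher than in WT, where 47.7% were called and 25.2% higher, and Magi2 was not (log2 fold change 0.11, adjusted p = 0.489). Full separation was seen for 8 of the 9 genes, and for 46.1% of all genes tested. Kirrel was at 1.70, Nphs1 at 0.66 (adjusted p = 0.0017) and Podxl at 0.47 on the log2 fold change scale. Without the WT mouse A18, 9 and 8 genes were still called higher, and Nphs1 was at 0.74 in Anti-miR-21 and 0.56 in ACEi mice. Over all genes, 6930 and 7932 of 17586 were called in either direction in these 2 comparisons without A18. Treated and WT comparisons share the WT mice, and the treated mice also enter the comparisons with Veh.

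How far the treated mice lay from the Veh mean (0%) towards the WT mean (100%) was computed on the log2 CPM scale for the 7 genes called between Veh and WT. In Anti-miR-21 mice it was 49.6% ± 10.1 (SD, n = 6) for Cd2ap, 42.4% ± 12.4 for Kirrel and 33.8% ± 10.6 for Plce1. It was 17.01% ± 6.76 for Synpo, 16.04% ± 5.92 for Wt1 and 6.88% ± 4.20 for Ptpro. In ACEi mice it was 38.8% ± 3.08 (n = 3) for Cd2ap, 28.3% ± 4.69 for Kirrel, 30.8% ± 18.7 for Plce1, 15.8% ± 3.46 for Synpo, 16.5% ± 22.6 for Wt1 and 4.87% ± 7.62 for Ptpro. Podxl lay on the far side of Veh from WT, at -136% ± 24.0 in Anti-miR-21 and -77.5% ± 20.6 in ACEi mice, on a distance between Veh and WT of only 0.26 in log2 fold change. The lower of these values depend on the scaling. With library totals alone, an alternative chosen after the values were seen, Anti-miR-21 mice were at 29.5% ± 9.12 for Synpo, 33.5% ± 8.75 for Wt1, 22.9% ± 6.85 for Ptpro and -4.43% ± 8.78 for Podxl. For Kirrel and Cd2ap they were then at 45.5% ± 13.2 and 53.1% ± 12.2. In ACEi mice Podxl turned to 6.33% ± 9.49. These percentages reuse the values that chose the genes and are descriptions.

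Within groups the genes tended to move together from mouse to mouse. For each mouse, the deviation of each gene from its group mean (log2 CPM) was computed, and the deviation of each gene was set against the mean deviation of the other 8 over the 20 mice. Pearson's r was highest for Synpo (0.829), Ptpro (0.782), Podxl (0.764) and Wt1 (0.751). It was lower for Kirrel (0.530), Magi2 (0.523), Nphs1 (0.521) and Plce1 (0.331), and lowest for Cd2ap (0.142). Genes of a library share its composition and scaling, so these are descriptions. In WT, mouse A6 stood 0.24 above its group mean on average over the 9 genes and A18 0.27 below, with 0 of 9 genes above the mean in A18. In A18 the summed level of 8 glomerular endothelium markers was 184 CPM, where the WT median was 481 CPM and the lowest of the other groups was 417 CPM. A18 was also the lowest WT mouse in other lists, 10 of 14 in all, among them the fibroblast markers (149 CPM, WT median 301 CPM) and the proximal tubule markers (14818 CPM, WT median 16224 CPM). The part of the sampled tissue in this difference was not tested.

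The genes outside the list whose deviations were most like the mean deviation of the 9 genes were C1qtnf1 (r = 0.897 over 20 mice), Rapgef4 (0.889), Tjp1 (0.877), Irak3 (0.874), Camk2g (0.873), Pard3b (0.858), Zbtb39 (0.855), Atf7 (0.851), Prrc2b (0.850) and Egflam (0.850), out of 17613 genes with a median r of 0.010. Tjp1, which encodes the junction protein ZO-1, is known as a part of the slit diaphragm and stands in the list of other slit diaphragm genes below. It rose in Veh (log2 fold change 0.94, adjusted p = 2.19e-08) and fell in Anti-miR-21 against Veh by 0.46 on the log2 scale (adjusted p = 0.000183). C1qtnf1 rose by 2.06 on the log2 scale in Veh. The lowest r of all genes was -0.905. High values were not particular to podocyte genes. Among the lists described below, the median r was 0.542 for the fibroblast markers and 0.474 for the glomerular endothelium markers. It was 0.461 for the other slit diaphragm genes, 0.329 for the macrophage markers, -0.157 for the proximal tubule markers and -0.320 for the adipocyte markers.

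Of 15 other slit diaphragm genes, 13 were called between Veh and WT, 11 higher and 2 lower. Over all genes tested 73.0% were called there, 39.0% higher and 34.0% lower. The median log2 fold change of the 15 genes was 0.73. The largest changes were those of Kirrel3, a homologue of Neph1 (0.320 ± 0.203 CPM in WT and 7.64 ± 0.987 CPM in Veh, log2 fold change 4.56), Cdh3, which encodes P-cadherin (8.41 ± 1.15 and 63.9 ± 10.2 CPM, log2 fold change 2.92), and Kirrel2, another homologue of Neph1 (0.213 ± 0.117 and 0.554 ± 0.137 CPM, log2 fold change 1.37, adjusted p = 0.00423). Kirrel and both of its homologues were thus called higher in Veh, Kirrel2 at a very low level and with overlapping groups. Against Veh, the list had 3 called higher and 10 lower in Anti-miR-21 mice, where 28.8% and 30.5% of all genes were. It had 2 higher and 5 lower in ACEi mice, where 21.0% and 19.1% of all genes were. Kirrel3 fell in Anti-miR-21 mice against Veh by 1.60 on the log2 scale. In ACEi mice its log2 fold change against Veh was -0.43, which edgeR's test did not call (adjusted p = 0.274). The direct difference of Anti-miR-21 against ACEi was not called either (log2 fold change -1.17, adjusted p = 0.0762).

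Among 15 genes of the podocyte cytoskeleton and of its adhesion to the basement membrane, 10 were called higher and 2 lower in Veh. Anln, an actin-bundling protein of dividing cells, had the largest log2 fold change at 3.24, ahead of the formin Inf2 (2.28) and the myosin heavy chain Myh9 (1.67). In Anti-miR-21 mice 3 of the 15 were higher and 10 lower than in Veh, and in ACEi mice 2 were higher and 8 lower. Of 7 podocyte transcription factors, 5 were called higher and 0 lower in Veh, led by Foxc2 (log2 fold change 1.61), Foxd1 (1.41) and Tcf21 (1.40), all of them factors of podocyte development. In Anti-miR-21 and ACEi mice 0 of the 7 were higher, and 5 and 4 were lower, than in Veh. Over all genes tested, 39.0% were called higher and 34.0% lower in Veh than in WT. Against Veh these shares were 28.8% and 30.5% in Anti-miR-21 mice and 21.0% and 19.1% in ACEi mice.

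Of 15 other podocyte-enriched genes, 10 were higher and 3 lower in Veh. The largest changes were those of the intermediate filament nestin (Nes, log2 fold change 2.33), the laminin receptor Bcam (1.78) and Rasl11a (1.65). Of the 9 genes of the glomerular basement membrane, 6 were higher and 2 lower in Veh. The largest change was the fall of Col4a3 itself by 2.52 on the log2 scale, followed by Nid1 (1.83) and Agrn (1.47). Of 14 genes tied to podocyte injury, 12 were higher and 1 lower in Veh, led by Cd44 (1.77 ± 0.872 CPM in WT and 63.4 ± 6.89 CPM in Veh, log2 fold change 5.16), osteopontin (Spp1, log2 fold change 4.31) and Cd80 (log2 fold change 3.64). In Anti-miR-21 mice 1 of the 14 was higher and 12 were lower than in Veh, and in ACEi mice 1 was higher and 10 were lower. Beside these counts, 39.0% of all genes tested were called higher and 34.0% lower in Veh than in WT. Against Veh, 28.8% were higher and 30.5% lower in Anti-miR-21 mice, and 21.0% and 19.1% in ACEi mice. Many genes of these lists are transcribed by other kidney cells too, and Cd44 and Spp1 are not particular to podocytes.

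Markers of other cells moved with the groups over the same comparisons. The summed level of 8 proximal tubule markers fell from 14818 to 18913 CPM in WT to 1542 to 4557 CPM in Veh, and was 8262 to 13789 CPM in Anti-miR-21 and 8363 to 10892 CPM in ACEi mice, with all 8 genes called lower in Veh and higher under each treatment. The 6 macrophage markers summed to 149 to 183 CPM in WT and 1427 to 1747 CPM in Veh (6 of 6 called higher), and the 6 fibroblast markers to 149 to 394 and 3376 to 4352 CPM (6 of 6 called higher). The 7 T and B cell markers summed to 2.68 to 3.57 CPM in WT and 13.9 to 32.8 CPM in Veh, with 6 of 7 higher, and the 5 adipocyte markers to 0.592 to 410 CPM in Veh, with 4 of 5 higher. Of glomerular cells, the 8 endothelial markers summed to 184 to 496 CPM in WT and 417 to 541 CPM in Veh, with 3 of 8 higher (Cdh5 among them) and 2 lower (Kdr and Ehd3). Of 6 mesangial markers 4 were higher, and of 7 parietal epithelial markers 5 were higher. Over all genes tested, 39.0% were called higher and 34.0% lower in Veh than in WT. Against Veh, 28.8% were called higher in Anti-miR-21 and 21.0% in ACEi mice. The 9 genes together summed to 255 to 382 CPM in WT, 501 to 593 CPM in Veh, 512 to 553 CPM in Anti-miR-21 and 499 to 534 CPM in ACEi mice. No marker of these lists was at 0 in every mouse of a group. The part of a changed mixture of cells in the levels of the 9 genes was not tested.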

How the data were processed

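Total RNA of 20 mouse kidneys was sequenced as 100 bp paired-end reads. Reads were mapped by the authors with OmicSoft software against GRCm38. The authors deposited estimated counts per Ensembl gene without normalization between libraries. The authors also deposited FPKM values, scaled by them for exon length and library total, and their annotation table gives exon length and overlap (other). The library table they deposited holds alignment counts per library. Mice were matched to libraries by the labelled library name. In the FPKM table, 3 libraries of no sample listed here were not used. The methods name an Ensembl gene model for the FPKM, while the rows carry UCSC genes. The label gives ramipril as 11 mg/L, and the library table gives 4 mg/kg.

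Estimated counts were rounded, as 27.9% of the positive values were not whole. Genes passing filterByExpr (minimum count 10, total 15; 17622 genes, all 9 members among them) were scaled by TMM and tested in 1 fit of 4 groups in edgeR 4.0.16 (R 4.3.3; quasi-likelihood test). Adjustment was by Benjamini-Hochberg over all genes, and genes under 0.05 are called. A prior count of 2 entered log2 CPM. The methods of the study use one-way analysis of log2(FPKM + 1), which was run with limma 3.58.1 as an alternative, as was DESeq2 1.42.0. Tables were made with pandas 2.3.3 and numpy 2.4.6 and plots with matplotlib 3.10.9 (Python 3.11.15). The pipeline was tested on simulated data. Nothing in the labels says that mice share a litter. The p-values set a group difference against the spread between mice, which was estimated over all 4 groups together.

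The members and gene lists were chosen with earlier results of these data known. All 9 members are named. Of each other list, at most 3 called genes with the largest absolute log2 fold change between Veh and WT are named, besides Col4a3 and the 10 genes most like the mean deviation of the members. Tested alternatives were other scalings, filters, flow cell as a term or alone, fewer groups, other tools and each mouse left out. No table of proteins was used here. Promoters of Podxl, Synpo and Wt1 were not analysed here.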

Additional observations from a re-analysis of the deposited data

Results flagged for a closer look

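One value stood apart from its group. Plce1 was at 6.27 CPM in the Anti-miR-21 mouse A15, and the nearest of the other 5 mice was at 7.64 CPM. This gap was large for the range of the group by Dixon's criterion. Lowest and highest values were examined in 27 combinations of gene and group with at least 4 mice, of which 1 stood apart, and chance alone flags about 1 in 20 such groups. Without this mouse, Plce1 in Anti-miR-21 against Veh was still called lower.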

How the results depend on the processing

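No paired analysis was possible because the labels number each mouse separately and tie none to a mouse of another group. Under the alternatives, 1 count of called genes moved by more than 1.5 times: ACEi against Veh with flow cell B only had 1 called gene, against 4. Calls over all genes also dropped in that fit, to 1539 of 16993 from 7074 of 17622. When each mouse was left out in turn, the called genes numbered 6 to 7 in Veh against WT, 6 to 7 in Anti-miR-21 against Veh and 3 to 4 in ACEi against Veh. Over all genes, calls in these fits ran from 12491 of 17608 to 12804 of 17576 in Veh against WT. They ran from 9655 of 17606 to 10355 of 17576 in Anti-miR-21 against Veh, and from 4978 of 18006 to 7335 of 17576 in ACEi against Veh. Signs of fold changes turned only for values that had not passed the test. In Veh against WT with flow cell A only, Nphs1 was -0.12 and Magi2 -0.046 on the log2 scale, and leaving out mice gave -0.023 to 0.23 for Nphs1 and -0.031 to 0.13 for Magi2. In ACEi against Veh, Magi2 was -0.0046 with upper-quartile scaling, -0.20 with library totals, and -0.11 and -0.19 by limma on log2(FPKM + 1) and log2(FPKM + 0.1). Podxl there was -0.057, -0.060 and -0.061 with library totals and the same limma fits. In that comparison Ptpro reached 0.016 when flow cell was a term, 0.021 with flow cell B only, and -0.11 to 0.0058 when mice were left out. In Anti-miR-21 against ACEi, leaving out mice gave -0.098 to 0.082 for Wt1, -0.035 to 0.013 for Synpo, -0.17 to 0.098 for Plce1 and -0.076 to 0.021 for Ptpro, and Plce1 was 0.012 by limma on FPKM divided by the TMM factor. Within a library, the difference from the other 8 genes between Veh and WT turned to 0.29 for Cd2ap and -0.28 for Plce1 on log2(FPKM + 1). With library totals alone, the place of Podxl between Veh and WT turned to 6.33% in ACEi mice. The causes were not tested. With 3 ACEi mice, the standard errors against Veh were larger than those of Anti-miR-21 for all 9 genes.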
